A study of Danio rerio with 4 samples.

Results

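Voltage-gated and potassium channel genes were examined in adult zebrafish heart ventricles, uninjured and 20 days post amputation (dpa). The genes were chosen by name, with earlier results of these data known. Taken were rows whose symbol begins with the roots kcn (potassium channels and their auxiliary subunits) or scn (voltage-gated sodium channels). Rows beginning with cacna, cacnb or cacng (voltage-gated calcium channels) or hcn (hyperpolarization-activated channels) were also taken. Of 31388 genes, 191 carried such a name, and 51 of these had 50 or more counts in at least 1 library and are described here. The other 140 stayed under that floor, 26 of them with 0 counts in every library.

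Messenger RNA was sequenced in 4 libraries, with 1 library to a group. The wild-type (WT) fish were of the AB* strain, and mutant fish were homozygous for the pt30a allele of dusp6, a phosphatase gene that restrains ERK signalling. All fish were adults aged 6 months to 1 year. Uninjured ventricles of each genotype were compared with ventricles that had recovered for 20 days from resection of part of the ventricle. Whole ventricles were extracted, so a transcript can come from any cell of the tissue, and fewer cells of a type and less RNA per cell cannot be told apart. The number of ventricles in each library is unknown here, and with 1 library per group no difference had a replicate check.

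Total counts were between 55197408 and 63222206 per library. Transcripts of the dusp6 gene itself were not lower in the mutant libraries (85.0 and 105 CPM in the uninjured and 20 dpa WT libraries, 183 and 121 in the dusp6 ones). Whether the allele lowers its own transcript is not stated in the labels. CPM here are counts scaled to a common library size after TMM scaling, a correction for library composition. The column headers of the uninjured and the 20 dpa libraries follow different naming patterns and the labels name no batch. Any difference in library preparation that followed those patterns cannot be told apart from injury; each pattern held both genotypes. Genes listed as markers of ventricular cardiomyocytes (6 past the floor) summed to 38474 and 39087 CPM in the uninjured libraries of WT and dusp6 and to 44008 and 46616 at 20 dpa. For 4 of the 6, both 20 dpa libraries lay above both uninjured libraries, as they did for 29.1% of all genes past the floor. The ventricular myosin gene vmhc did not follow the sum, with 356 and 722 CPM uninjured and 672 and 248 at 20 dpa, higher in WT and lower in dusp6. Red cell markers summed to 4195 and 3241 CPM uninjured and to 7768 and 6207 at 20 dpa, and 1 of 4, the globin gene hbaa1, was called higher by edgeR. The whole skeletal muscle list summed to 4522 and 4790 CPM uninjured and to 3911 and 4331 at 20 dpa, most of it from the creatine kinase gene ckma (4488 and 4559 uninjured, 3799 and 4132 at 20 dpa). Without ckma and ckmb, left out after their values were seen, it summed to 13.2 and 10.3 CPM uninjured and to 82.0 and 36.3 at 20 dpa. Of that list, 13 of 16 genes passed the floor and 4 (mylpfa, pvalb1, pvalb2 and pvalb4) were called higher at 20 dpa by edgeR. The same fit called 84 of all 15621 genes past the floor higher.

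The heartbeat is an electrical event built from these channels. In a working cardiomyocyte a sodium current starts the action potential, an L-type calcium current sustains its plateau and triggers contraction, and delayed rectifier potassium currents end it, while inward rectifiers hold the resting potential between beats. Pacemaker tissue adds HCN channels and T-type calcium channels. The zebrafish ventricle resembles the human one in its long plateau and in its reliance on an ERG-type delayed rectifier, and fish carry extra copies of many channel genes from an ancestral genome duplication.

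Levels between genes were compared as RPKM, the authors' read counts scaled by gene model length and library size. Of the 51 genes, 28 averaged over 1 RPKM across the 4 libraries and 7 averaged over 10 RPKM. The sodium channel beta subunit gene scn3b (ENSDARG00000062359) was the most abundant per length, with 85.9 RPKM in uninjured and 133 in 20 dpa WT ventricles, and 154 and 114 in the dusp6 pair. The ERG-type potassium channel gene kcnh6a (ENSDARG00000001803), which carries the rapid delayed rectifier current in the zebrafish heart, followed with 74.8, 75.5, 81.2 and 69.2 RPKM in the order WT uninjured, dusp6 uninjured, WT 20 dpa, dusp6 20 dpa, which all unlabelled sets of 4 values follow. Their ranges did not overlap, so the order of these leading genes was the same in every library. Together they made up 43.9%, 53.1%, 55.0% and 52.4% of the RPKM summed over all 191 channel rows. That sum was 366, 432, 389 and 350 RPKM, and the 51 genes past the floor held between 98.8% and 99.3% of it.

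The next genes by mean RPKM were scn4ba (31.0), hcn2b (26.9), cacna1g (17.1), kcnj14 (16.6), cacna1c (14.7), kcnq1 (9.80) and cacna2d1a (9.30). Neighbours in this order overlapped between libraries: hcn2b ranged from 16.3 to 36.3 RPKM and scn4ba from 23.0 to 39.2, and cacna1g (13.2 to 22.2), kcnj14 (11.6 to 22.9) and cacna1c (12.6 to 15.5) spanned each other. By their known roles, these leading genes included those of a rapid and a slow delayed rectifier and of an inward rectifier. Genes of an L-type and a T-type calcium channel and of an HCN channel were also among them. No current was measured. The sodium channel stood apart. Its pore-forming subunits averaged between 0.155 and 1.20 RPKM, with scn4ab the highest, well under the beta subunits scn3b and scn4ba. The symbol scn5lab (also scn12ab), used for a zebrafish cardiac sodium channel, was not matched to a row and is not analysed here, nor are kcnh2b, kcna5a and kcna5b. The symbol scn5laa, from the same list of cardiac current genes, was not matched to a row either. The related gene scn12aa was matched and averaged 1.08 RPKM. Whether scn12aa is the gene also called scn5laa was not resolved here.

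**Figure D1:**
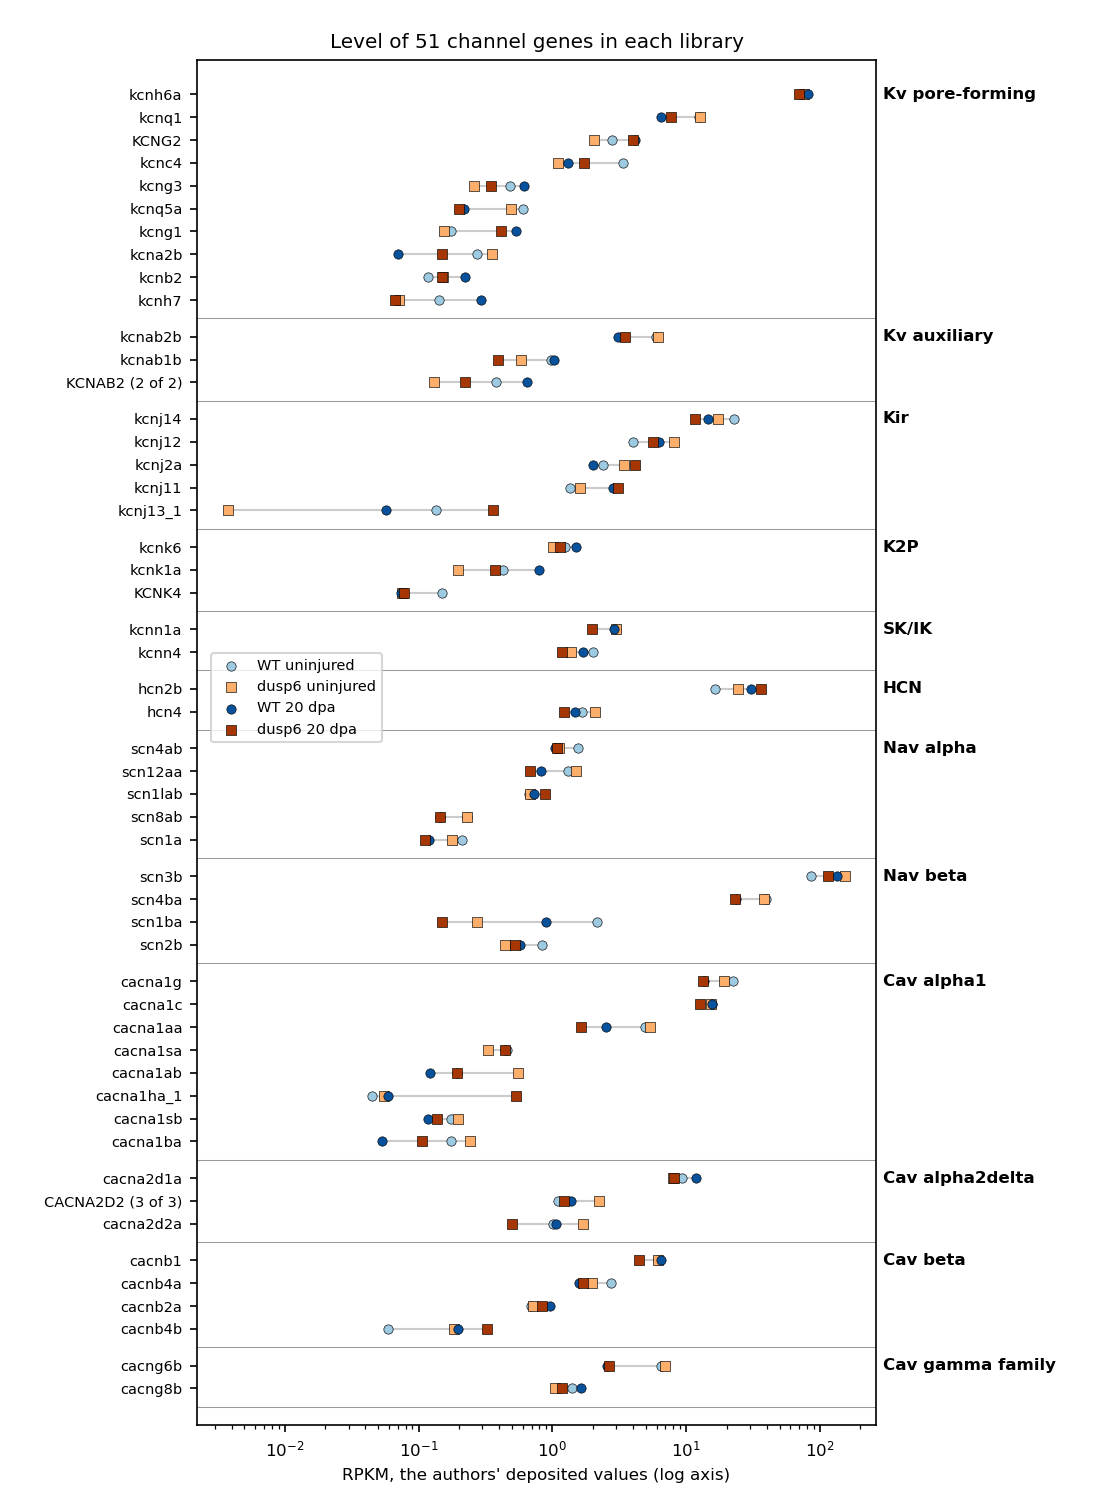
RPKM (log axis) of each of the 51 channel genes in the 4 libraries, grouped by role, with 1 point per library and no error bars since each group has 1 library. scn3b and kcnh6a stand at the right, between 69.2 and 154 RPKM, and kcnj14, hcn2b and cacna2d1a lie above the other genes of their classes in every library.

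Most role classes were carried by 1 or a few genes. Among 53 rows for pore-forming voltage-gated potassium channels, kcnh6a took 78.0% to 84.8% of the class RPKM and kcnq1 6.75% to 13.5%. In the HCN class, hcn2b took 90.4% to 96.7%. The calcium channel pore class was shared by cacna1g (41.7% to 50.7%) and cacna1c (35.3% to 47.7%), with cacna1aa at 5.67% to 12.9%. Of 27 inward rectifier rows, kcnj14 took 44.4% to 72.6% and kcnj12 12.7% to 25.8%. Among calcium channel auxiliary subunits, cacna2d1a took 66.8% to 82.6% of the alpha2delta class and cacnb1 60.6% to 70.3% of the beta class.

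Several genes known for cardiac currents in mammals or fish stayed under the floor. The transient outward channel gene kcnd3 and the inward rectifier genes kcnj3a and kcnj2b had 0 counts in all libraries. The highest library held 6 counts of KCNE1, the partner of kcnq1 in the slow delayed rectifier, 4 of kcnip2 and 3 of kcnh2a, of the ERG family. Nearest below the floor were kcnj8 (47 counts in its highest library), scn4aa (43), kcnab1a (38) and kcnj5 (33). Nearest above it were KCNAB2 (2 of 2) with 57 counts, kcnb2 with 65, kcna2b with 68, and kcng1 and kcnh7 with 69. Depth was thus ample for the leading channels and thin for others: 12 of the 51 genes had 1000 or more counts in the highest library and 10 had under 100.

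The first comparison concerned injury. Each 20 dpa library was set against the uninjured library of its own genotype, and an additive edgeR quasi-likelihood fit over the 4 libraries, with genotype as the other term, tested the injury difference. Its error has 1 residual degree of freedom, which comes from how far the injury difference of one genotype departs from that of the other. No channel gene was called at an adjusted p of 0.05 by edgeR with Benjamini-Hochberg adjustment, against 0.819% of all 15621 genes past the floor. At an unadjusted p under 0.05 the same fit gave 12 channel genes lower (13.4% of all genes) and 4 higher (14.0% of all genes). The DESeq2 Wald test called 5 lower (4.02% of all genes) and 1 higher (4.97% of all genes): cacna1aa, cacna1g, cacng6b, kcnq1 and scn4ba were lower and hcn2b was higher.

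Across the 51 genes the median log2 difference at 20 dpa was 0.01 in WT and -0.12 in dusp6, against -0.00 and -0.01 over all genes. In both genotypes 19 were lower at 20 dpa and 16 were higher, and 16 had opposite signs. Of all 15621 genes past the floor, 5732 were lower in both genotypes and 5544 were higher. Both 20 dpa libraries lay below both uninjured libraries for 16 genes, or 31.4%, near the 29.4% of all genes that did so. Both lay above for 11 genes, or 21.6%, against 29.1% of all genes. Past 2-fold, 3 channel genes were higher (5.88% of all genes) and 6 lower (4.08%) in WT, and 4 were higher (5.79%) and 4 lower (7.06%) in dusp6. These counts were made on log2(CPM + 0.25), which understates the change of low genes. On that scale, only kcng1 was past 2-fold higher (2.26% of all genes) and cacng6b past 2-fold lower (1.85%) in both genotypes alike. By ratios of scaled counts, kcnj11 was also past 2-fold higher in both genotypes. By the same ratios, kcnq5a, cacna1ba and kcna2b were also past 2-fold lower in both. The share of all genes past 2-fold by ratios was not computed, so the percentages above do not apply to these added genes.

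**Figure D2:**
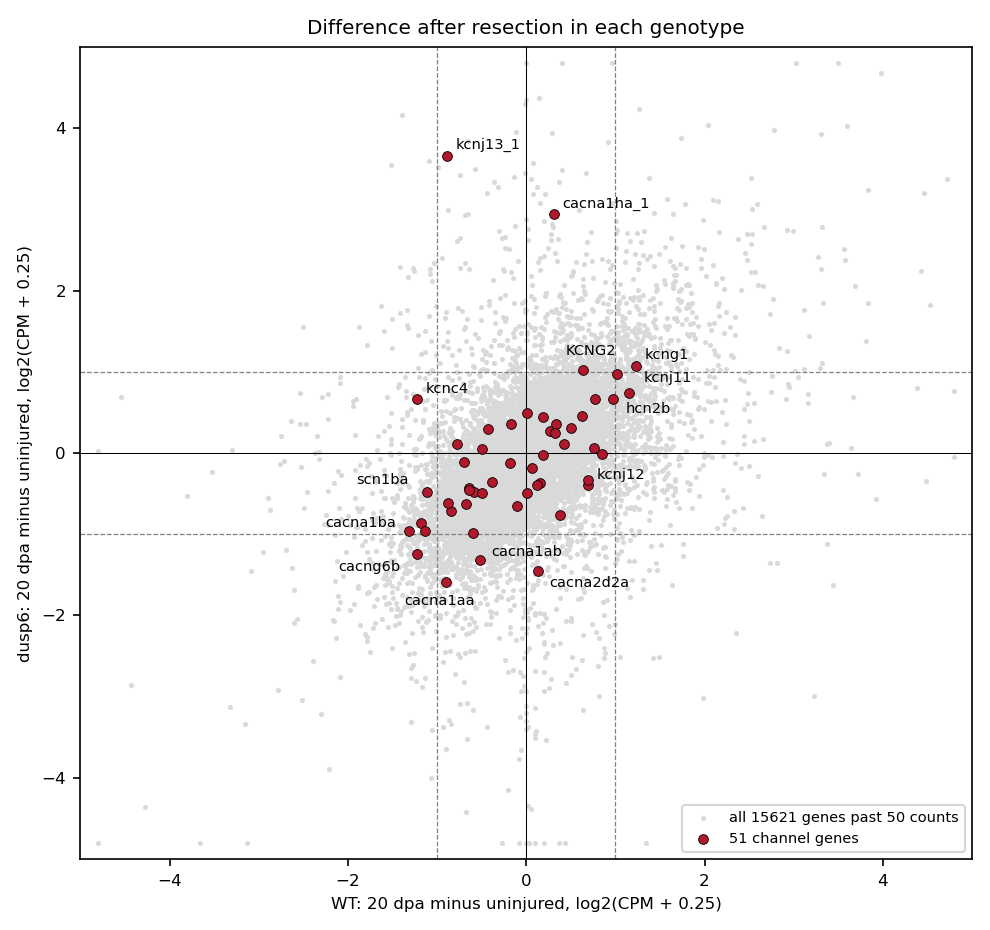
Log2 difference of 20 dpa from the uninjured library of the same genotype, WT on the horizontal and dusp6 on the vertical axis, with channel genes in colour over all genes past the floor in grey (grey points beyond the axes are drawn at their edge). cacng6b and cacna1aa lie low on both axes, kcng1 and kcnj11 high on both, and cacna1ha_1 and kcnj13_1 high on the dusp6 axis alone.

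Repolarizing potassium channels came in different sizes of difference. The pore gene of the slow delayed rectifier, kcnq1 (ENSDARG00000059798), was measured at 37.8 CPM in uninjured and 20.5 in 20 dpa WT ventricles, and at 40.2 and 26.1 in the dusp6 pair. Both 20 dpa libraries were below both uninjured libraries. The level was 1.84-fold lower in WT (95% counting interval 1.72 to 1.98) and 1.54-fold lower in dusp6 (1.44 to 1.65), with an edgeR adjusted p of 0.0725 and a DESeq2 adjusted p of 0.0105. Counting intervals, here and below, cover counting error only, and reads counted without molecular identifiers need not stand for separate molecules. For kcnh6a the CPM were 392, 415, 445 and 408, and the groups overlapped. It was 1.14-fold higher in WT and 1.02-fold lower in dusp6, and total-count scaling turned the sign of its mean difference. The RPKM ratio of kcnh6a to kcnq1 was therefore 6.01 and 5.97 in the uninjured libraries and 12.6 and 9.04 at 20 dpa.

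KCNG2 and kcng1 encode silent potassium channel subunits, which form no channel alone but modify others. KCNG2 (ENSDARG00000035961) was measured at 8.01 and 6.21 CPM in WT and dusp6 uninjured and at 12.6 and 12.9 at 20 dpa, 1.57-fold higher in WT and 2.08-fold higher in dusp6, with an edgeR adjusted p of 0.0828. kcng1, named after its values were seen, was low throughout, with 0.388, 0.359, 1.25 and 1.03 CPM. Its 20 dpa level was 3.23-fold higher in WT (2.03 to 5.28) and 2.88-fold higher in dusp6 (1.72 to 4.97), and its edgeR adjusted p was 0.153. At the low end kcnq5a, a relative of kcnq1, stood at 1.94 and 1.65 CPM uninjured and 0.744 and 0.727 at 20 dpa, lower by 2.61-fold in WT and by 2.27-fold in dusp6. Among auxiliary subunits, kcnab2b stood at 11.2 and 12.3 CPM uninjured and at 6.10 and 7.39 at 20 dpa, 1.83-fold and 1.66-fold lower (edgeR adjusted p 0.0766).

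Inward rectifier genes differed in direction. The most abundant, kcnj14 (ENSDARG00000075914), was measured at 62.1 CPM in uninjured and 41.5 in 20 dpa WT ventricles, and at 49.3 and 35.3 in the dusp6 pair. Every 20 dpa value was under every uninjured value, by 1.5-fold in WT and 1.40-fold in dusp6 (edgeR adjusted p 0.0892). Another inward rectifier, kcnj12, had 4.01 RPKM in WT uninjured and 8.06, 6.30 and 5.68 in the others, so that WT uninjured stood alone and low. The RPKM ratio of kcnj14 to kcnj12 was accordingly 5.71 in WT uninjured and 2.15, 2.32 and 2.04 elsewhere.

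The pore gene of the ATP-sensitive potassium channel, kcnj11 (ENSDARG00000051880), which opens as cellular energy runs low, was higher at 20 dpa in both genotypes. Its CPM were 1.66 and 2.04 uninjured and 3.61 and 4.25 at 20 dpa, with folds of 2.18 in WT (1.72 to 2.77) and 2.08 in dusp6 (1.67 to 2.62) and an edgeR adjusted p of 0.0881. kcnj11 is expressed in skeletal muscle as well as in heart. The skeletal muscle marker list was higher at 20 dpa in its sum without ckma and ckmb and lower in its whole sum, and the part of such cells in the kcnj11 difference was not tested. The K2P-family leak channel kcnk6 (5.42, 4.65, 6.84 and 5.55 CPM) and the calcium-activated channels kcnn1a (20.1, 20.9, 20.3 and 14.8) and kcnn4 (3.57, 2.58, 3.12 and 2.35) were within 1.42-fold of their own uninjured library.

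In the HCN class the leading gene was higher at 20 dpa in both genotypes. The pacemaker channel gene hcn2b (ENSDARG00000061665) was measured at 54.2 CPM in uninjured and 106 in 20 dpa WT ventricles, and at 85.1 and 136 in the dusp6 pair. All 4 values were apart, with both 20 dpa libraries above both uninjured ones. The fold at 20 dpa was 1.97 in WT (1.89 to 2.05) and 1.59 in dusp6 (1.54 to 1.65), with an edgeR adjusted p of 0.0661 and a DESeq2 adjusted p of 0.000472. hcn4, the main pacemaker isoform of the mammalian sinus node, was measured at 5.99, 7.81, 5.54 and 4.90 CPM, 1.08-fold and 1.59-fold lower at 20 dpa. In RPKM the ratio of hcn2b to hcn4 was 9.78 and 11.8 uninjured and 20.8 and 29.9 at 20 dpa. The 3 genes of the atrial marker list summed to 19425, 20537, 19946 and 21605 CPM. Most of that sum came from myl7 (between 17757 and 18934), so it mainly follows this 1 gene and is no measure of atrial tissue. On the same list, myh6 had 86.6, 48.3, 145 and 250 CPM, higher at 20 dpa in both genotypes, and nppa 1581, 1555, 1545 and 2559. The part of atrial cells in the hcn2b difference was not tested.

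Sodium channel subunit genes differed in direction. scn4ba (ENSDARG00000099031), a beta subunit gene, was measured at 86.2 CPM in uninjured and 54.0 in 20 dpa WT ventricles, and at 87.8 and 56.7 in the dusp6 pair. The genotypes were close in either state, and the 20 dpa libraries were 1.60-fold lower in WT (1.53 to 1.67) and 1.55-fold lower in dusp6 (1.48 to 1.62). The edgeR adjusted p was 0.0685 and the DESeq2 adjusted p 0.00753. The more abundant beta subunit gene scn3b had 317, 595, 513 and 474 CPM, 1.62-fold higher in WT and 1.26-fold lower in dusp6, and the low value was that of WT uninjured. Of the pore-forming genes, scn4ab had 1.55, 1.13, 1.04 and 1.09 RPKM. In CPM its groups overlapped, with 9.13 in dusp6 uninjured against 9.49 in dusp6 20 dpa. scn1lab was higher at 20 dpa in both genotypes, with 5.97 and 6.39 CPM uninjured and 6.82 and 8.82 at 20 dpa (1.14-fold and 1.38-fold). scn12aa had 8.10 and 9.62 CPM uninjured and 5.28 and 4.75 at 20 dpa. Both of the latter genes were named after their values were seen. The summed RPKM share of scn3b in the beta class was 67.0% in WT uninjured and 79.8% to 84.2% in the other libraries.

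Calcium channel pore genes were lower at 20 dpa in both genotypes for 5 of 8 past the floor and higher for 2. Over all 15621 genes past the floor, 5732 were lower in both and 5544 higher. Their median of mean log2 differences was -0.45, against -0.01 over all genes. The T-type gene cacna1g (ENSDARG00000089913), whose channel opens near the resting potential, was measured at 211 CPM in uninjured and 134 in 20 dpa WT ventricles, and at 191 and 141 in the dusp6 pair. These groups did not overlap, and the level was 1.57-fold lower in WT (1.52 to 1.61) and 1.35-fold lower in dusp6 (1.31 to 1.39), with an edgeR adjusted p of 0.0902 and a DESeq2 adjusted p of 0.0289. The L-type gene cacna1c (ENSDARG00000008398), which zebrafish ventricles need to contract, was measured at 112, 117, 118 and 103 CPM. It was 1.05-fold higher in WT and 1.14-fold lower in dusp6. Per length, cacna1g exceeded cacna1c by 1.44 and 1.25 in the uninjured libraries, and the ratio was 0.875 in WT 20 dpa and 1.05 in dusp6 20 dpa.

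The P/Q-type gene cacna1aa (ENSDARG00000037905), known mainly from neurons in mammals, was measured at 57.9 CPM in uninjured and 31.0 in 20 dpa WT ventricles, and at 65.6 and 21.6 in the dusp6 pair. It was 1.87-fold lower in WT (1.77 to 1.98) and 3.03-fold lower in dusp6 (2.84 to 3.24), with an edgeR adjusted p of 0.0664 and a DESeq2 adjusted p of 2.01e-05. Neuronal and glial markers summed to 13.7, 24.2, 17.9 and 29.8 CPM, most of it from syt1a (10.9, 22.1, 14.0 and 24.8). Of that list 3 of 11 matched genes passed the floor, elavl3 was at 0 in 3 libraries, and the part of such cells in the cacna1aa difference was not tested. The related N-type gene cacna1ba stood at 1.73, 2.51, 0.545 and 1.17 CPM, lower by 3.18-fold in WT and by 2.15-fold in dusp6. In the authors' deposited table, which sets each 20 dpa library against both uninjured libraries pooled, cacna1aa had a fold change of -2.82 in dusp6 (FDR 0.00136) and -2.01 in WT (FDR 0.0959). Both deposited comparisons share their uninjured libraries. It was the only channel gene called lower in the dusp6 table (0.941% of all genes), and none was called lower in the WT table (0.992%).

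Among auxiliary calcium channel subunits, 1 gene was lower by a similar fold in both genotypes. The gamma-family gene cacng6b (ENSDARG00000046079) was measured at 9.72 CPM in uninjured and 4.03 in 20 dpa WT ventricles, and at 10.9 and 4.44 in the dusp6 pair. It was 2.41-fold lower in WT (2.07 to 2.82) and 2.45-fold lower in dusp6 (2.11 to 2.86). Its edgeR adjusted p of 0.0557 was the lowest of the 51 genes, and its DESeq2 adjusted p was 0.00231. The alpha2delta gene cacna2d1a, whose product brings pore subunits to the membrane, had 36.6, 33.2, 49.1 and 36.0 CPM and was 1.34-fold and 1.09-fold higher. The beta subunit gene cacnb1 (18.9, 20.0, 21.0 and 15.4 CPM) was 1.11-fold higher in WT and 1.29-fold lower in dusp6, while cacnb2a (3.69, 3.98, 5.32 and 4.99 CPM) was 1.44-fold and 1.25-fold higher.

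**Figure D3:**
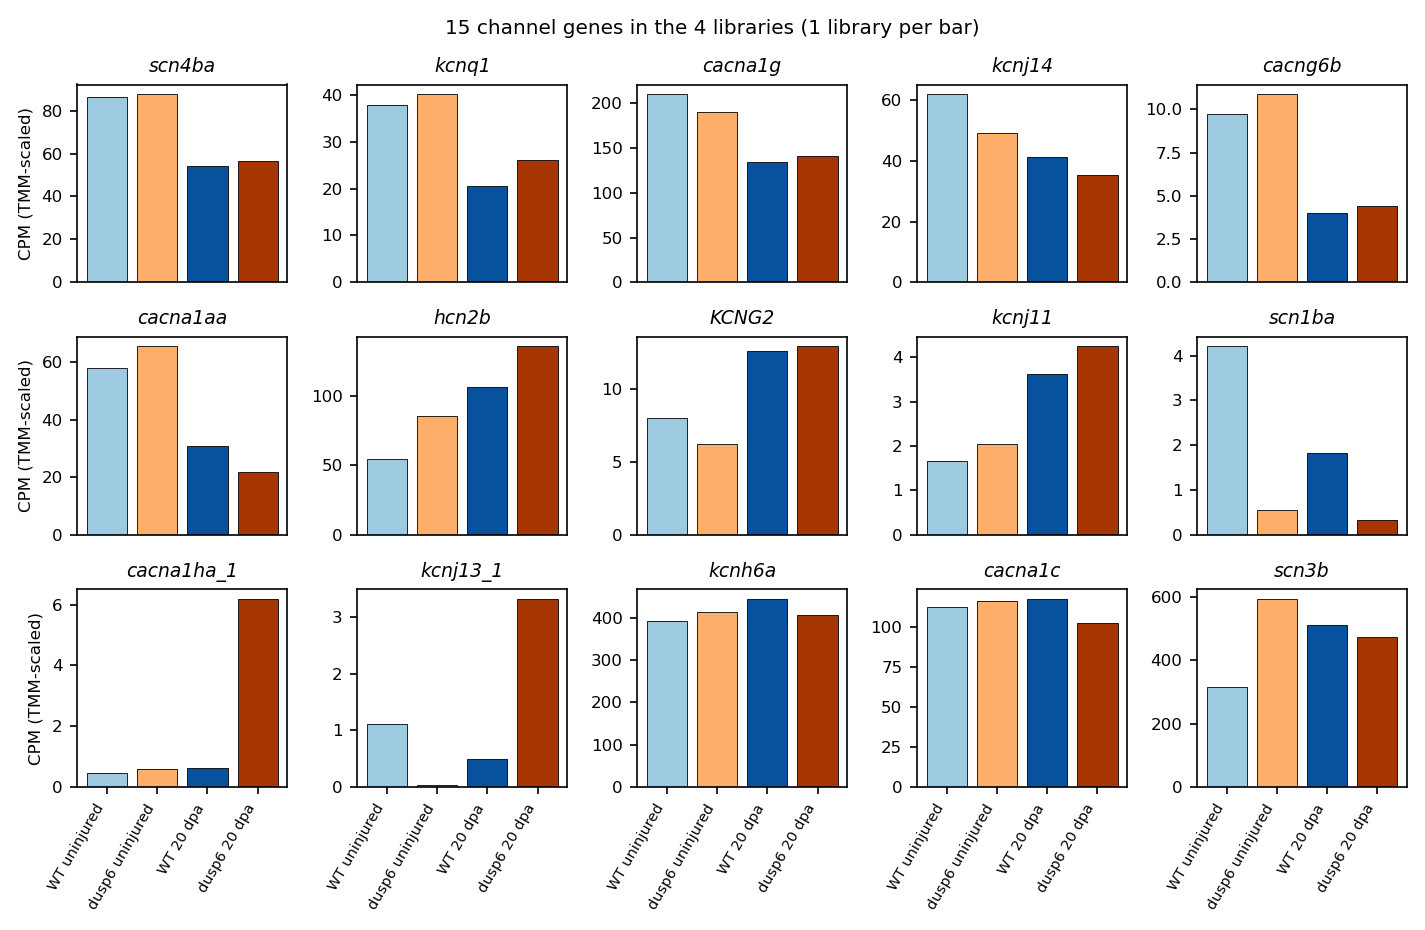
CPM of 15 channel genes in the 4 libraries, each panel starting at 0, with 1 bar per library and no error bars. hcn2b is highest at 20 dpa, kcnq1, scn4ba, cacna1g, cacna1aa and cacng6b are lowest there, and scn1ba is lower in both dusp6 libraries.

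The second comparison concerned genotype, with injury as the other term. No channel gene was called by edgeR at an adjusted p of 0.05, against 0.0064% of all genes. At an unadjusted p under 0.05, 3 were higher in dusp6 (4.84% of all genes) and 2 lower (3.99% of all genes). DESeq2 called scn1ba lower (0.493% of all genes) and none higher (0.461%). Past 2-fold, 4 were higher and 3 lower in dusp6 among uninjured libraries (3.19% and 2.77% of all genes), and 3 were higher and 4 lower at 20 dpa (2.64% and 3.5% of all genes). Both dusp6 libraries lay below both WT libraries for 10 genes, or 19.6%, against 11.8% of all genes, and above for 2, or 3.92%, against 12.2%.

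The beta subunit gene scn1ba (ENSDARG00000060222), of the subunit that in mammals joins the cardiac sodium channel pore, was past 2-fold lower in dusp6 in both states, as were 0.653% of all genes. No channel gene was past 2-fold higher in both states (0.544% of all genes). Uninjured WT and dusp6 ventricles held 282 and 34 counts, and those at 20 dpa 100 and 17, or 4.21, 0.555, 1.82 and 0.325 CPM. Each dusp6 library was under either WT library. The level was 7.59-fold lower among uninjured libraries (5.31 to 11.2) and 5.58-fold lower at 20 dpa (3.32 to 9.96). Its edgeR unadjusted p was 0.00117 and its adjusted p 0.331, and the DESeq2 adjusted p was 0.00419. WT 20 dpa was also 2.32-fold lower than WT uninjured. Among the other beta subunit genes, scn2b was 1.81-fold and 1.0-fold lower in dusp6. scn4ba was 1.02-fold and 1.05-fold higher, and total-count scaling turned the sign of its mean genotype difference.

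Higher in both dusp6 libraries was the inward rectifier gene kcnj2a, whose human counterpart carries the resting potassium current of the ventricle. It had 3.84 and 3.39 CPM in the WT libraries and 5.77 and 7.50 in the dusp6 libraries, uninjured first, and was 1.5-fold higher in dusp6 uninjured and 2.21-fold higher at 20 dpa (1.85 to 2.64), with an edgeR unadjusted p of 0.0159 and an adjusted p of 0.506. hcn2b was 1.57-fold and 1.27-fold higher in dusp6 (edgeR adjusted p 0.523). The low calcium channel gene cacna1ab had 1.79 and 1.18 CPM in WT and 5.40 and 2.01 in dusp6, and was 3.01-fold and 1.70-fold higher. Of the 3 neuronal and glial markers past the floor, syt1a had 22.1 and 24.8 CPM in dusp6 against 10.9 and 14.0 in WT, while the mean log2 genotype difference was 0.08 for elavl4 and -0.30 for mbpa. Their part in the cacna1ab difference was not tested.

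Lower in both dusp6 libraries was kcnab1b, a beta subunit of voltage-gated potassium channels, at 2.49 and 2.74 CPM in WT and 1.57 and 1.13 in dusp6. Its fold was 1.59 uninjured and 2.43 at 20 dpa, with an edgeR adjusted p of 0.548. The K2P-family leak channel kcnk1a (0.702 and 1.38 CPM in WT, 0.343 and 0.689 in dusp6) was 2.05-fold and 2.0-fold lower, and the calcium-activated channel kcnn4 was 1.39-fold and 1.33-fold lower. Of the 7 genes over 10 RPKM, hcn2b was 1.27-fold, scn4ba 1.05-fold and cacna1g 1.05-fold higher in dusp6 at 20 dpa, and kcnh6a was 1.09-fold, scn3b 1.08-fold, cacna1c 1.15-fold and kcnj14 1.17-fold lower. Between uninjured libraries, scn3b was 1.88-fold and kcnj12 2.11-fold higher in dusp6.

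**Figure D4:**
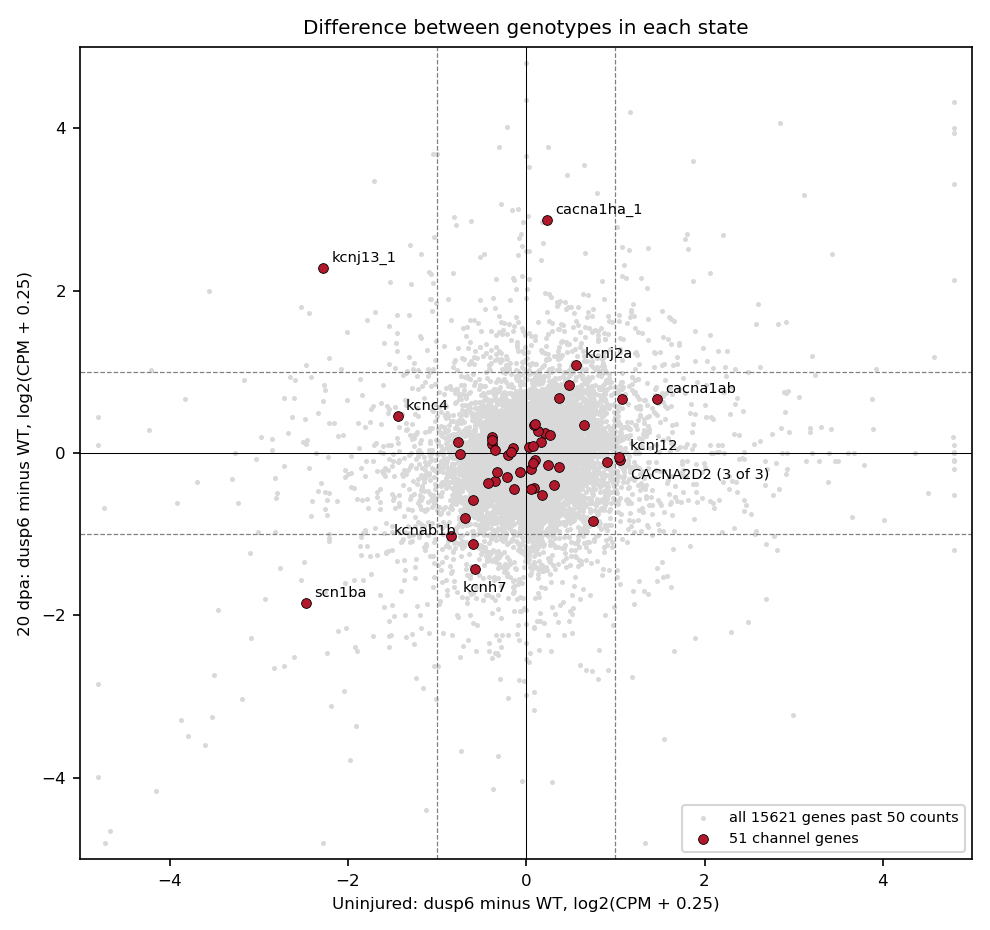
Log2 difference of dusp6 from WT, uninjured on the horizontal and 20 dpa on the vertical axis, with channel genes in colour over all genes past the floor in grey (grey points beyond the axes are drawn at their edge). scn1ba lies low on both axes, kcnj2a high on both, and kcnj13_1 low when uninjured and high at 20 dpa.

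A few differences rested on 1 library. The T-type gene cacna1ha_1 (ENSDARG00000060496) had 31 and 35 counts in the WT pair (uninjured, then 20 dpa) and 36 and 324 in the dusp6 pair. Only the last stood apart, 10.6-fold above its own uninjured library (7.47 to 15.3) and 9.76-fold above WT 20 dpa (6.87 to 14.3). Its edgeR adjusted p for injury was 0.213. In the authors' deposited table its fold change in dusp6 was 11.9 (FDR 1.32e-05), the only upward call among channel genes (1.72% of all genes), and in WT it was 1.20 (FDR 1). The WT table called no channel gene higher (1.91%). A row with the suffix _2 held 0 counts in all libraries, and how the authors' counting split reads between such rows is unknown here.

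The inward rectifier row kcnj13_1 had 75 and 27 counts in the WT pair and 2 and 174 in the dusp6 pair, so that dusp6 was past 2-fold lower uninjured and past 2-fold higher at 20 dpa, as in 0.512% of all genes. The ratio between the dusp6 libraries was 102 (27.8 to 849) and rests on those 2 counts.

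Some other genes that stood apart in 1 or more libraries were chosen after their values were seen. The voltage-gated potassium channel gene kcnc4 had 6.50 CPM in WT uninjured and 2.23, 2.63 and 3.69 in the other libraries. kcnh7, of the ERG family, had 1.25 CPM in WT 20 dpa and 0.583, 0.310 and 0.306 elsewhere in group order. CACNA2D2 (3 of 3), an alpha2delta gene, had 9.79 CPM in dusp6 uninjured and 4.59, 6.04 and 5.68 in WT uninjured, WT 20 dpa and dusp6 20 dpa. In all, 15 genes were past 2-fold against their own uninjured library in at least 1 genotype, or 29.4% against 18.3% of all genes, and none in opposite directions (0.429% of all genes). Within 2-fold in all 4 comparisons were 30, or 58.8% against 78.4% of all genes. Channel genes were counted less deeply: 30 of the 51 had 250 or more counts in the highest library, against 11319 of all 15621 genes. The part of count depth in these shares was not tested.

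**Figure D5:**
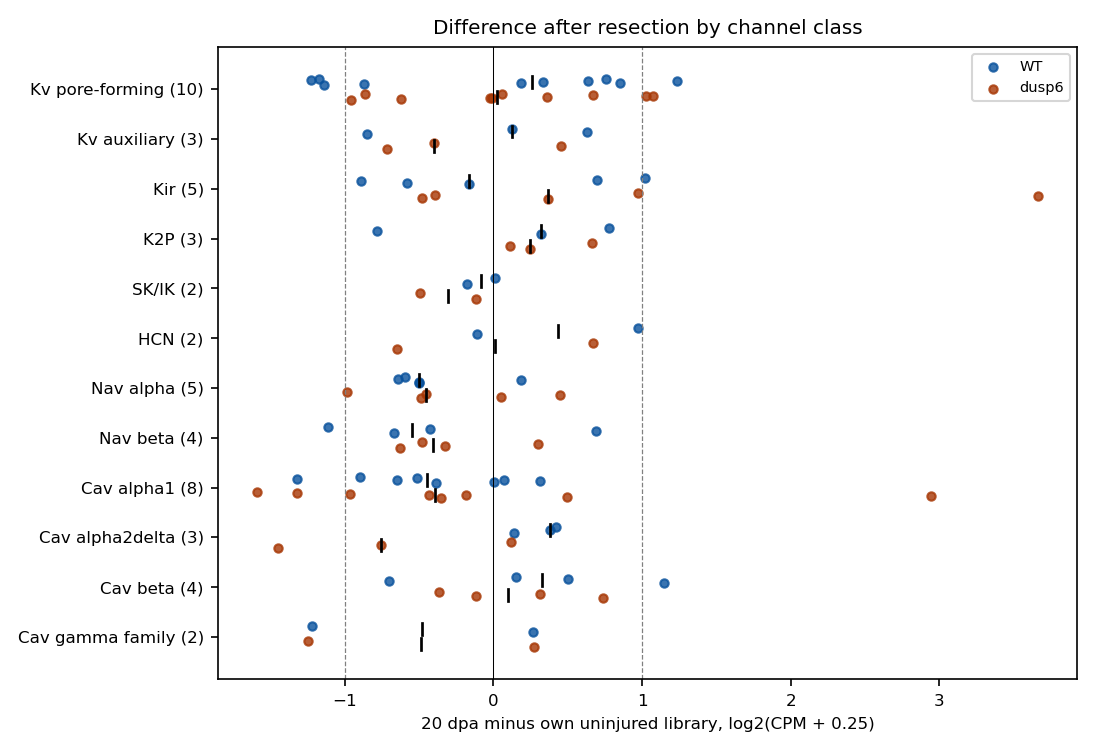
Log2 difference at 20 dpa for each channel gene by role class, with WT and dusp6 each against its own uninjured library; each point is 1 gene, the black ticks are class medians, and the number of genes is in brackets. The calcium and sodium channel pore classes (Cav alpha1 and Nav alpha) have medians below 0 in both genotypes, as do Nav beta, Cav gamma family and SK/IK. Medians lie above 0 in both for K2P, Cav beta, HCN and Kv pore-forming. In dusp6 the medians of HCN and Kv pore-forming are close to 0 (0.01 and 0.02). HCN and Cav gamma family hold 2 genes each, 1 lower and 1 higher in both genotypes, so their medians give no shared direction.

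By class, the median of the mean injury differences (log2) was -0.49 for the 5 sodium channel pore genes, -0.45 for the 8 calcium channel pore genes, 0.21 for the 10 pore-forming voltage-gated potassium channel genes and 0.15 for the 5 inward rectifier genes. Over all 51 genes it was -0.14 and over all genes tested -0.01. The inward rectifier genes had a median of -0.17 in WT and 0.36 in dusp6, and 1 was lower and 1 higher in both genotypes. CPM summed over that class were 74.9 and 70.0 in the WT and dusp6 uninjured libraries and 59.0 and 60.1 at 20 dpa. The sodium channel pore genes averaged between 0.155 and 1.20 RPKM and did not include scn5lab, which was not matched to a row. Summed over a class, the CPM of the calcium channel pores were 389, 385, 289 and 279 in group order, those of the HCN class 60.1, 92.9, 112 and 140, and those of the pore-forming voltage-gated potassium channels 450, 468, 487 and 455.

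Genes that work beside these channels gave no call either. Of 22 channel partners past the floor, such as calmodulins, none was called for injury by edgeR at an adjusted p of 0.05. At an unadjusted p under 0.05, 5 were higher and 2 lower (14.0% and 13.4% of all genes, which also apply to the lists that follow). The calmodulin gene calm3b was the largest by mean difference (80.1 and 57.6 CPM uninjured, 146 and 129 at 20 dpa). Of the listed FGF homologous factor genes only fgf13a passed the floor. Of 21 pump and exchanger genes none was called and 4 were higher and 0 lower at that unadjusted level, with a median log2 difference of 0.33. There the sodium pump subunit gene atp1b2a had 48.4 and 34.8 CPM uninjured and 78.6 and 76.9 at 20 dpa. Its mean log2 difference (0.92) was smaller in size than those of atp1a1a.3 (-1.32) and slc8a2a (1.13). Among 18 genes listed for calcium release channels and their partners, itpr genes and sln included, none was called and 2 were higher and 2 lower. Of these 18, trdn, encoding the junctional protein triadin, had 117 and 113 CPM uninjured and 75.5 and 65.2 at 20 dpa. The low gene casq1a, also on the skeletal muscle marker list, differed by more and in the other direction (mean log2 difference 1.64, against -0.71 for trdn). None of 8 gap junction genes and none of 22 genes of other ion channels was called, with 1 and 1, and 2 and 3, higher and lower at the unadjusted level.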

How the data were processed

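RNA sequencing of 4 ventricle libraries was analysed from 2 tables deposited by the authors. Per the file headers they hold gene expression values, whole numbers used here as raw counts, and RPKM computed by the authors. The deposited tables also hold a signed fold change (a score, negative where a gene was lower) and, from an EDGE test of each 20 dpa library against the uninjured pair, a p-value with its FDR. Aligner, build and strand handling are not given here, so overlapping genes and near-identical copies are uncertain. The uninjured columns of the tables were used once, and 0 columns belonged to other samples.

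Counts were scaled by TMM in edgeR 4.0.16 (R 4.3.3). Genes with 50 or more counts in at least 1 library (15621) were fitted with genotype and injury as terms, with 1 residual degree of freedom, in edgeR's quasi-likelihood test with Benjamini-Hochberg adjustment over all of them. Comparisons of 1 library with 1 carry no test. Their counts past 2-fold used log2(CPM + 0.25), and folds of named genes are ratios of scaled counts with exact conditional 95% counting intervals. The fits and intervals were tested on simulated data. Alternatives were DESeq2 1.42.0, other scalings, floors, pseudocounts and folds, and leaving out each library. Named were genes called, the 10 largest by mean injury and by mean genotype difference with 100 or more counts, the highest of each role class, and a list of cardiac current genes. The channel genes and the 13 lists of other genes were chosen with earlier results of these data known. Of the 51 identifiers, 50 were in the gene name table. Other steps used scipy 1.17.1, pandas 2.3.3, matplotlib 3.10.9 and numpy 2.4.6 in Python 3.11.15.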

Additional observations from a re-analysis of the deposited data

Results flagged for a closer look

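The row kcnj13_1, for an inward rectifier of the kcnj13 type, was flagged because the genotypes differed in opposite directions in the 2 states. Uninjured WT and dusp6 ventricles held 75 and 2 counts, and those at 20 dpa 27 and 174. On the scale of log2(CPM + 0.25) the dusp6 library minus the WT library was -2.28 uninjured and 2.27 at 20 dpa. With 1 library per group this difference between states was not tested. Opposite differences past 2-fold were found for 0.512% of all genes. A row with the suffix _2 held 0 counts in every library.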

How the results depend on the processing

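The count of channel genes called for injury (0 in the additive edgeR fit) was 1 with DESeq2 size factors in edgeR (cacng6b), 5 with no floor (cacna1aa, cacng6b, hcn2b, kcnq1 and scn4ba) and 6 in the DESeq2 Wald test, and 0 with total-count scaling, a floor of 250 counts, genotype left out, or each library left out in turn together with genotype, since 3 libraries leave no error for both terms (range 0 to 0). Over all genes the injury count was 128, and 1 with total-count scaling, 333 with DESeq2 size factors, 0 with a floor of 250, 987 with no floor, 1404 in DESeq2, and 0 to 25 with 1 library and the genotype term left out (25 without WT uninjured, 0 without each other library). The genotype count of channel genes (0) was 1 in DESeq2 (scn1ba) and 0 in the other settings, with each library and the injury term left out included (0 to 0). Over all genes it was 1, 149 in DESeq2, 22 with no floor, 15 without dusp6 20 dpa and 0 without each other library. Counts past 2-fold moved as follows, where a floor of 250 kept only 30 of the 51 channel genes. WT injury (9) gave 2 with a pseudocount of 1 CPM, 3 with a floor of 250 and 27 past 1.5-fold. dusp6 injury (8) gave 13 with a pseudocount of 0.05 CPM, 5 with a floor of 250 and 22 past 1.5-fold. The uninjured genotype count (7) gave 4 with a pseudocount of 1 CPM and 16 past 1.5-fold, and that at 20 dpa (7) gave 3 with the same pseudocount, 3 with a floor of 250 and 13 past 1.5-fold. The cause was not tested beyond the construction of each setting. Under total-count scaling the all-gene median moved by -0.083 to -0.10 (log2) in the injury comparisons. Directions past 2-fold shifted with it: dusp6 injury went from 4 higher and 4 lower to 2 and 7. WT injury went from 3 higher and 6 lower to 2 and 6, and the uninjured genotype comparison from 4 and 3 to 2 and 3. The genotype comparison at 20 dpa stayed at 3 and 4. Of 256 recomputed values of 32 named genes, 231 moved by less than their counting error and 25 by more, and 3 small differences changed sign, all under total-count scaling: cacnb2a for genotype (0.01 to -0.07), kcnh6a for injury (0.08 to -0.02) and scn4ba for genotype (0.05 to -0.03). Genes under 100 counts are limited by depth. No paired analysis was possible because the labels give 1 library per group and no replicate numbers.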
